A study of Mus musculus with 8 samples.

Results

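The 10 genes described here encode the enzymes that cut, trim, extend and rejoin DNA during V(D)J recombination: the recombinase genes Rag1 and Rag2, the terminal transferase gene Dntt, and the non-homologous end-joining genes Xrcc6, Xrcc5, Prkdc, Dclre1c, Lig4, Xrcc4 and Nhej1. They were chosen by name for this function, though with earlier results of these data known, and are 10 of 53465 genes listed in the count tables. All 10 were among the 17291 genes with enough reads to be tested. RNA was sequenced from CD4+CD8+ (double-positive) thymocytes, sorted by flow cytometry as live single cells from dissociated thymi of C57BL/6J mice and of NOD/ShiLtJ mice (NOD below), inbred mice in which autoimmune diabetes arises without treatment. The labels name no transgene and no treatment of the mice, and they give neither age nor sex, nor whether animals were pooled. Each strain had 4 libraries, and counts of libraries of the same strain and B number (a number in their titles) were summed into samples 1 and 2 of each strain.

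In thymocytes, the receptor genes are assembled from separate V, D and J segments. The RAG1 and RAG2 proteins form the recombinase that cuts beside the segments and leaves hairpin-sealed coding ends. Artemis, the product of Dclre1c, opens the hairpins after activation by the kinase DNA-PKcs, the terminal transferase adds nucleotides without a template, and the Ku and ligase IV complexes bind and seal the ends. At the double-positive stage the recombinase acts on the alpha chain locus of the T cell receptor until the cell is selected or dies.

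In both strains, Rag1 and Dntt were among the most abundant transcripts for their annotated exon length. On this scale, Rag2 and Xrcc6 stood at like levels below them, and the other end-joining genes were lower still. Rag1, Rag2 and Dntt had lower levels in all 4 NOD libraries than in any C57BL/6J library, by 34.4%, 20.5% and 30.1% of the C57BL/6J mean. The libraries were separated in this direction for 9.00% of all tested genes. No member reached an adjusted p under 0.05 in edgeR's quasi-likelihood test with 2 samples per strain. The 7 end-joining genes showed log2 fold changes (NOD over C57BL/6J) between -0.26 and 0.33, each with a 95% interval that includes 0. Fewer cells of a type and less RNA per cell cannot be told apart in RNA from a sorted population.

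The sequences before the starts of the 3 genes with separated strains are shown because the levels of these genes, and those of a neighbour of Rag1, are the main differences described here. RefSeq promoter windows (GRCm38.p6, 250 bases before the start to 50 after) were found for 9 of the 10 genes. The 250 bases before the start are printed 5′ to 3′ on the strand of the gene, with matches to the searched motifs in capitals. They span chr2:101649533-101649782 on the minus strand for Rag1, chr2:101624462-101624711 on the plus strand for Rag2 and chr19:41029025-41029274 on the plus strand for Dntt.
Rag1: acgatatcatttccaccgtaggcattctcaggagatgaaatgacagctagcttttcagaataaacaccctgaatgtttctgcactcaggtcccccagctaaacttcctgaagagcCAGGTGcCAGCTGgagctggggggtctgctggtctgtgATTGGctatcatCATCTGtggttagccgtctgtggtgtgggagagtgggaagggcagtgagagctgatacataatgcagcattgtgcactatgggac
Rag2: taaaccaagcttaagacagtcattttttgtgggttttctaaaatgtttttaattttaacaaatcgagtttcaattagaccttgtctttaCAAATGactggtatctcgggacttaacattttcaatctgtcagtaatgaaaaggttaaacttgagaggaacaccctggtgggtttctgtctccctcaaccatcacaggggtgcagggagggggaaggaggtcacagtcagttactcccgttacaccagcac
Dntt: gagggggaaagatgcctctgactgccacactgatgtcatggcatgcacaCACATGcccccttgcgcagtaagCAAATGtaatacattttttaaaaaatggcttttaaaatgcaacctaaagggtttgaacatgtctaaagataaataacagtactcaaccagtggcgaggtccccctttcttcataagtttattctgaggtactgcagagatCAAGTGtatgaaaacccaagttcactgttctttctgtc

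Motifs were searched on both strands, and no match in a member overlapped another. Those found in members were CANNTG, which is the E-box bound by E proteins, the CCAAT motif, and GGGCGG, which is known as the GC box. The TATA box was searched as TATAAA. A forkhead motif, the kind bound by FOXO and FOXP factors, was searched as GTAAACA. Positions count back from the start, with -1 as the base before it, and name the first base of a match. In Rag1 the capitals mark E-boxes at -135, -128 and -85 and CCAAT read on the other strand at -97, and a further E-box lay after the start. In Rag2 they mark an E-box at -161, with another after the start. In Dntt they mark E-boxes at -201, -178 and -38. An E-box was also present in 72.3% of the 32851 promoter windows of the table, CCAAT in 37.4%, the GC box in 35.7%, the TATA box in 13.6% and the forkhead motif in 3.65%. None of the matched members held the TATA box or the forkhead motif. The GC box was absent from Rag1, Rag2, Dntt and Xrcc5 and present in Xrcc6, Dclre1c, Xrcc4, Nhej1 and the second of 2 windows of Lig4. The share of G and C was 43.0% and 42.3% in the windows of Rag2 and Dntt and 64.3% to 67.3% in those of Xrcc6, Xrcc4 and Lig4, against a median of 52.7% over all windows. Motif matches describe the letters of these windows only.

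Levels are given as counts per 1000000 reads in genes (CPM) after scaling by TMM factors and, to compare genes, as CPM per kb of exon. The exon length merges all annotated exons of a gene, used in these cells or not. Comparisons between genes, ranks included, thus depend on the annotation. Values are mean ± SD of n = 2 summed samples per strain throughout. Per kb, C57BL/6J levels ran in the order Rag1 (1361 ± 120), Dntt (872 ± 117), Rag2 (105 ± 6.08), Xrcc6 (101 ± 10.0), Lig4 (36.8 ± 7.47), Xrcc5 (11.5 ± 1.89), Xrcc4 (9.89 ± 0.0196), Dclre1c (7.80 ± 2.38), Prkdc (7.05 ± 1.77) and Nhej1 (4.54 ± 0.276). Rag2 and Xrcc6 differed by less than their spread, as did each pair of neighbours in that order from Xrcc5 to Prkdc. NOD levels followed the same order except that Xrcc6 (84.8 ± 4.67 per kb) stood next above Rag2 (83.4 ± 0.121 per kb), again within the spread. Over all 8 libraries Rag1 ranked 8 and Dntt 15 among protein-coding genes by CPM per kb, whereas Rag2 ranked 225, Xrcc6 230, Lig4 874 and the other 5 members between 3677 and 6649.

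**Figure D1:**
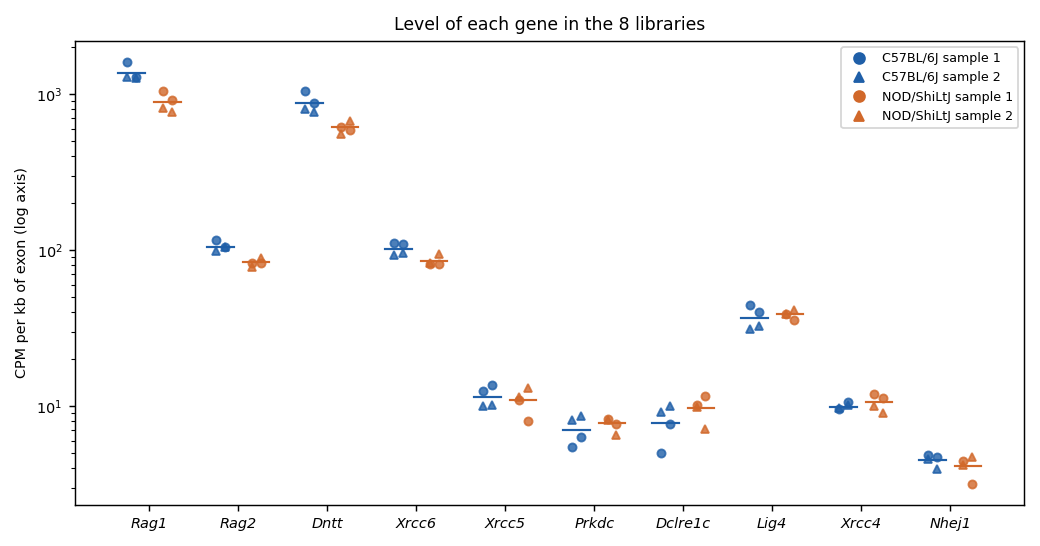
Level of each member in the 8 libraries, in CPM per kb of exon on a log axis; circles and triangles are the libraries of samples 1 and 2 of a strain, and lines are the mean of the 2 summed samples. Rag1 and Dntt stand highest, and the points of the strains do not overlap for Rag1, Rag2 and Dntt.

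Rag1 (ENSMUSG00000061311, GRCm38 chromosome 2, 101638282 to 101649501, minus strand) encodes the subunit that holds the active site of the recombinase. It was counted at 10612 and 8527 CPM in the libraries of C57BL/6J sample 1 and 8478 and 8381 CPM in those of sample 2, against 6949 and 6083 CPM in NOD sample 1 and 5352 and 5049 CPM in NOD sample 2. Every NOD library was below every C57BL/6J library, and both libraries of NOD sample 2 were the lowest. The strain means were 8991 ± 795 CPM for C57BL/6J and 5896 ± 948 CPM for NOD. The log2 fold change was -0.61 ± 0.21 (SE; 95% interval -1.09 to -0.13), with an unadjusted p of 0.0185 and an adjusted p of 0.217 in edgeR. Each library held at least 73379 Rag1 reads, so counting error was small beside the difference between samples. Without C57BL/6J sample 1, whose first library stood well above the other 3 of its strain, the log2 fold change was -0.52.

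The alternatives for Rag1 fell on both sides of the threshold. The adjusted p was 0.126 in DESeq2, 0.0358 in limma on the 8 libraries with libraries of the same sample treated as correlated (log2 fold change -0.62 ± 0.15), and 0.00367 in edgeR without the filter on low counts. Over all 13 alternatives the direction held, from -0.78 to -0.46, and the adjusted p ran from 0.00367 to 0.589.

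Rag2 (ENSMUSG00000032864, chromosome 2, 101624718 to 101632529, plus strand) encodes the partner subunit, which binds methylated histone H3. Its libraries stood at 396, 360, 340 and 355 CPM in C57BL/6J and at 284, 285, 265 and 306 CPM in NOD. The strains did not overlap, although the highest NOD library (306 CPM) was close to the lowest C57BL/6J library (340 CPM). The summed samples gave 359 ± 20.8 and 286 ± 0.414 CPM, a log2 fold change of -0.33 ± 0.16 (95% interval -0.69 to 0.03; edgeR adjusted p = 0.444).

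Dntt (ENSMUSG00000025014, chromosome 19, 41029275 to 41059525, plus strand) encodes the terminal transferase, TdT, which makes N nucleotides at the junctions. Its libraries held 2394, 1999, 1839 and 1767 CPM in C57BL/6J and 1413, 1352, 1278 and 1542 CPM in NOD. Again no library of the strains overlapped, and the spread among NOD samples was small (1999 ± 267 against 1398 ± 10.1 CPM). The log2 fold change was -0.52 ± 0.18 (95% interval -0.93 to -0.10), with an unadjusted p of 0.0197 and an adjusted p of 0.225 in edgeR. The adjusted p was 0.233 in DESeq2, 0.0675 in limma on the 8 libraries and 0.0466 in edgeR without the filter on low counts. Without C57BL/6J sample 1 the log2 fold change was -0.38.

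The Ku heterodimer binds broken ends and recruits the other joining factors. Its smaller subunit, Ku70, comes from Xrcc6 (chromosome 15, 81987835 to 82040085, plus strand) and the larger, Ku80, from Xrcc5 (chromosome 1, 72307421 to 72394952, plus strand). Xrcc6 stood at 497, 486, 417 and 431 CPM in the C57BL/6J libraries and at 362, 363, 370 and 419 CPM in the NOD libraries. Of the NOD libraries, 3 lay below all those of C57BL/6J, and the second library of NOD sample 2 lay within the C57BL/6J range. Its log2 fold change was -0.26 ± 0.17 (95% interval -0.63 to 0.12; edgeR adjusted p = 0.636). Xrcc5 ranged from 25.9 to 34.9 CPM in C57BL/6J and from 20.7 to 33.1 CPM in NOD, almost the same range (-0.08 ± 0.22, edgeR adjusted p = 0.936).

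DNA-PKcs, the kinase that Ku recruits to the end, is encoded by Prkdc (chromosome 16, 15637866 to 15842235, plus strand). Its C57BL/6J libraries held 72.4, 84.2, 107 and 114 CPM and its NOD libraries 110, 102, 108 and 86.4 CPM. The samples of C57BL/6J differed from each other more than the strains did (92.9 ± 23.3 against 102 ± 5.93 CPM; log2 fold change 0.14 ± 0.20, edgeR adjusted p = 0.869). The sign of this difference turned without C57BL/6J sample 1, when it was -0.10.

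Artemis, the nuclease that opens hairpin ends, is encoded by Dclre1c (chromosome 2, 3424131 to 3464130, plus strand). Dclre1c varied the most of the 10 genes over the libraries, with a highest library 2.32 times the lowest. Its libraries held 46.7 and 71.9 CPM in C57BL/6J sample 1, 86.0 and 93.0 CPM in the other C57BL/6J sample, 95.2 and 108 CPM in NOD sample 1 and 91.5 and 66.3 CPM in NOD sample 2. The strains overlapped, and the first library of C57BL/6J sample 1 was the lowest. The log2 fold change was 0.33 ± 0.23 (95% interval -0.20 to 0.86; edgeR adjusted p = 0.685), and leaving out C57BL/6J sample 1 or 2 gave 0.04 or 0.67.

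The ligase complex seals the ends. Lig4 (chromosome 8, 9969049 to 9977686, minus strand) encodes the DNA ligase, Xrcc4 (chromosome 13, 89774027 to 90089608, minus strand) its obligate partner, and Nhej1 (chromosome 1, 74967139 to 75125200, minus strand) the XRCC4-like factor XLF. Lig4 ranged from 162 to 233 CPM in C57BL/6J and lay within that range in NOD, from 186 to 215 CPM (0.08 ± 0.18, edgeR adjusted p = 0.922). Xrcc4 ranged from 40.5 to 44.6 CPM in C57BL/6J and from 38.4 to 50.7 CPM in NOD, where sample 1 was above the C57BL/6J range and sample 2 had a library within it and a library below it (0.11 ± 0.18, edgeR adjusted p = 0.890). Nhej1 was the lowest member, from 4.45 to 5.44 CPM in C57BL/6J and from 3.57 to 5.32 CPM in NOD (-0.13 ± 0.33, edgeR adjusted p = 0.933). Nhej1 held 39 to 142 reads per library. Its 95% interval of -0.88 to 0.63 was the widest of the members, and a difference inside that interval is not excluded. The part of low counts in this width was not tested.

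Across the 10 genes, 0 were called at an adjusted p under 0.05 by edgeR and by DESeq2, and limma on the 8 libraries called 1, Rag1. Of all 17291 tested genes, 3.68% passed in edgeR and 937 in DESeq2, and 749 of 15227 passed in limma on the 8 libraries. At an unadjusted p under 0.05, edgeR counted 2 members, Rag1 and Dntt, both lower in NOD. Over all tested genes, 2268 of 17291 reached that level in either direction, and 6.30% did so with lower levels in NOD. For 3 members, Rag1, Rag2 and Dntt, all 4 NOD libraries lay below all 4 C57BL/6J libraries, which was so for 9.00% of tested genes. The estimates were below 0 for 6 members and above 0 for 4, with a median log2 fold change of -0.10 against 0.02 over all tested genes. The recombinase and terminal transferase genes had the most negative estimates of the list, followed by Xrcc6.

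**Figure D2:**
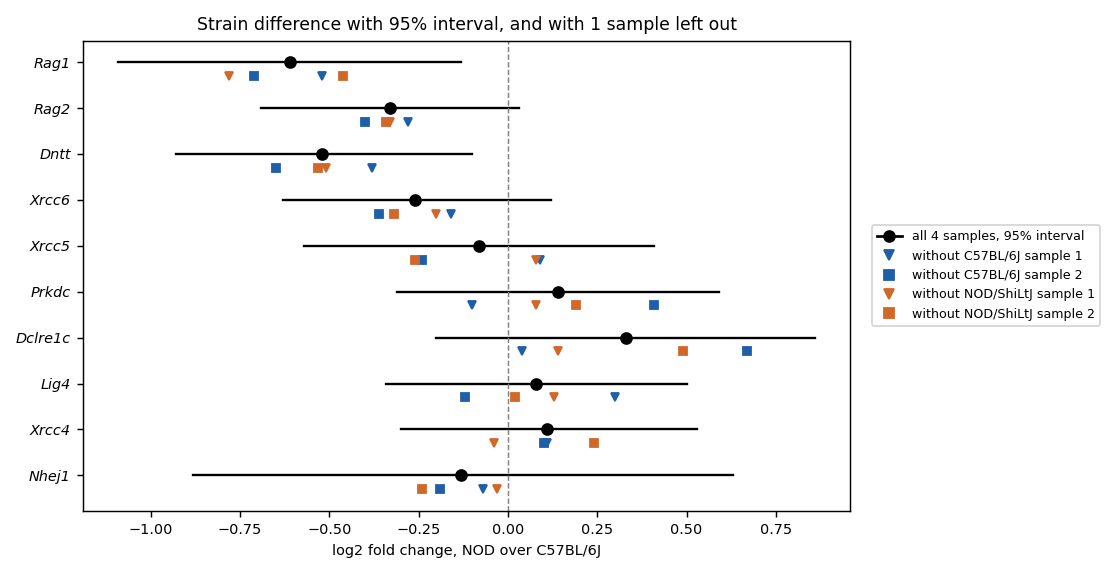
Log2 fold change of each member, NOD over C57BL/6J, with its 95% interval in edgeR (black) and the estimate when 1 of the 4 summed samples is left out (coloured marks). The intervals of Rag1 (-1.09 to -0.13) and Dntt (-0.93 to -0.10) exclude 0 before adjustment, and Xrcc5, Prkdc, Lig4 and Xrcc4 have left-out estimates on both sides of 0.

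Ratios of partner genes within a library do not depend on how libraries are scaled. With 2 samples per strain, the exact permutation test (two-sided) cannot give a p below 0.333. The ratio of Rag1 to Rag2, per kb, was 13.9, 12.3, 12.9 and 12.2 in the C57BL/6J libraries and 12.7, 11.1, 10.4 and 8.54 in the NOD libraries. It was lower in both NOD samples than in both C57BL/6J samples, though the libraries overlapped (12.9 ± 0.397 against 10.7 ± 1.70; log2 difference -0.28, exact p = 0.333). Dntt over Rag1 was similar in both strains, 0.640 ± 0.0290 against 0.693 ± 0.116 (log2 difference 0.11, exact p = 1.0). The subunits of Ku stood in a ratio of Xrcc5 to Xrcc6 of 0.113 ± 0.00745 and 0.128 ± 0.0141, so the transcript of the smaller subunit was the more abundant in both strains (exact p = 0.667). Lig4 exceeded Xrcc4 by 3.72 ± 0.748 times in C57BL/6J and 3.69 ± 0.693 times in NOD (exact p = 1.0). Prkdc over Xrcc6 was 0.0708 ± 0.0245 and 0.0918 ± 0.0104 (log2 difference 0.41, exact p = 0.667). When 1 sample was left out, the log2 difference ran from -0.45 to -0.12 for Rag1 over Rag2, from -0.07 to 0.28 for Dntt over Rag1, from 0.06 to 0.29 for Xrcc5 over Xrcc6, from -0.22 to 0.20 for Lig4 over Xrcc4 and from 0.05 to 0.77 for Prkdc over Xrcc6. Its sign thus turned for Dntt over Rag1 and Lig4 over Xrcc4. Adjusted over the 5 ratios, every p was 1.0, and none could pass at this number of samples.

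The share of reads that the counter assigned to no gene feature ran from 40.0% to 59.1% over the libraries. It is called reads outside genes below, although it may include reads in introns, since the counting settings are not given. Several members moved with this share across both strains. In the order of rising share, the libraries came from C57BL/6J sample 1 (40.0%), NOD sample 2 (46.6%), again C57BL/6J sample 1 (51.1%), then C57BL/6J sample 2 (53.8% and 53.9%), again NOD sample 2 (54.6%), and last NOD sample 1 (58.5% and 59.1%). In that order Dclre1c held 46.7, 66.3, 71.9, 93.0, 86.0, 91.5, 95.2 and 108 CPM. Its level was thus higher at every step but 1, whichever the strain. Prkdc was also lowest in the libraries with the smallest shares (72.4 CPM at 40.0%, 84.2 CPM at 51.1% and 86.4 CPM at 46.6%). Xrcc6 was highest at 40.0% (497 CPM) and lowest in the libraries at 58.5% and 59.1% (362 and 363 CPM). Rag1 was highest at the smallest share within C57BL/6J (10612 CPM at 40.0%, against 8381 to 8527 CPM at 51.1% to 53.9%) but not within NOD, where the library at 46.6% held 5049 CPM and that at 58.5% held 6949 CPM. Rag2 and Dntt were highest at the smallest share in both strains, with 396 and 2394 CPM in C57BL/6J and 306 and 1542 CPM in NOD.

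In a limma fit of the 8 libraries with this share as a covariate, chosen after seeing the data, the Dclre1c log2 fold change was 0.02 ± 0.10, from 0.32 ± 0.27 in the same fit without it. In those 2 fits that of Prkdc was -0.04 and 0.13, and that of Xrcc6 -0.20 and -0.27. Rag1 kept its size, -0.60 ± 0.14 against -0.62 ± 0.15 (limma adjusted p = 0.0209 and 0.0358), and Dntt moved from -0.51 ± 0.14 to -0.40 ± 0.09 (limma adjusted p = 0.0675 and 0.0165). Rag2 moved from -0.35 to -0.28 (limma adjusted p = 0.132 and 0.0701).

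**Figure D3:**
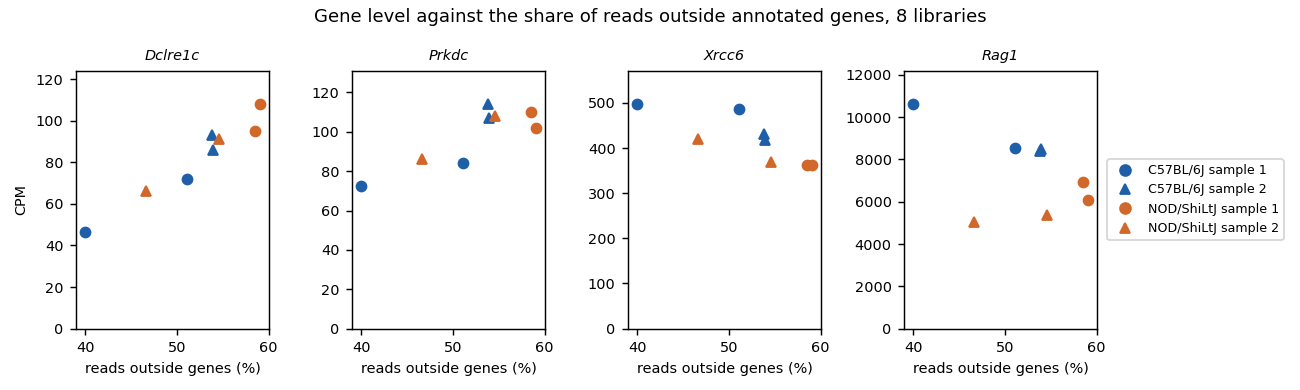
Level (CPM) of Dclre1c, Prkdc, Xrcc6 and Rag1 in the 8 libraries. The horizontal axis is the percentage of listed reads assigned to no gene feature, labelled as reads outside genes. Colours are strains and shapes are samples. Dclre1c stands at 46.7 CPM at 40.0% and 108 CPM at 59.1%, with both strains along the same line, whereas the Rag1 points of the strains stay apart.

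Rag1 and Rag2 lie side by side, 5753 bp apart and on opposite strands, and another annotated gene runs across both. B230118H07Rik (chromosome 2, 101560781 to 101649532, minus strand), which RefSeq lists as Iftap with the synonym NWC, shares 80 exon bases with Rag1 on the same strand and 208 with Rag2 on the opposite strand. On the minus strand, its GENCODE model starts at the base directly next to the Rag1 promoter window printed above. The printed sequence thus also lies directly before the start of that model. Its libraries stood at 42.9, 50.4, 30.0 and 32.4 CPM in C57BL/6J and at 85.0, 82.5, 68.5 and 69.6 CPM in NOD. All NOD libraries were above all those of C57BL/6J, the opposite order to that of both Rag genes. It rose from 38.2 ± 10.4 to 76.8 ± 10.6 CPM, a log2 fold change of 1.01 ± 0.22 (edgeR adjusted p = 0.0404).

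Leaving out either C57BL/6J sample ended the call of B230118H07Rik, with an adjusted p of 0.0510 (sample 1 left out) or 0.243 (sample 2 left out). The call was also lost with crossed B numbers as a block (0.0623) and with only the second library of each sample (0.131), and the adjusted p was 0.00971 in DESeq2. The way reads in shared exons were assigned, and the strand setting of the counting, are not given in the sources used here, so reads of these overlapping genes may not be fully separated. B230118H07Rik held 9745 reads over all libraries, where Rag1 held 1034662 and Rag2 46837. Traf6, which encodes a signalling ubiquitin ligase 28928 bp from Rag1 on its other side, had levels of 95.5 ± 3.92 CPM and 105 ± 3.83 CPM in the same order (0.13 ± 0.16, edgeR adjusted p = 0.843).

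**Figure D4:**
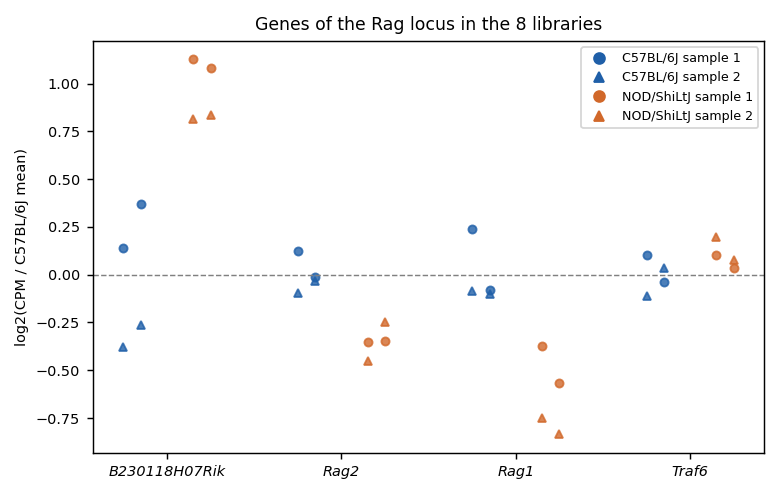
Genes of the Rag locus in the 8 libraries, as log2 of CPM over the mean of the 4 C57BL/6J libraries. Genes are in the order of their lowest chromosomal coordinate. Colours are strains and shapes are samples. All 4 NOD points of B230118H07Rik lie above those of C57BL/6J, those of Rag2 and Rag1 lie below, and those of Traf6 overlap.

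In all, 5 of the 10 members share exon bases with another annotated gene, so their counts carry the same limit. Xrcc6 shares 344 bases with Desi1 on the opposite strand (182 ± 4.07 and 169 ± 17.8 CPM; edgeR adjusted p = 0.873). Dclre1c shares 357 with Suv39h2, which encodes a histone methyltransferase (8.39 ± 0.565 and 8.71 ± 4.91 CPM, adjusted p = 0.976), and Xrcc4 shares 112 with Tmem167 (47.5 ± 3.05 and 62.4 ± 12.7 CPM, adjusted p = 0.466). None of these partners passed the test. Abhd13, which starts 21 bp from Lig4, stood at 48.8 ± 2.38 and 65.5 ± 5.88 CPM (adjusted p = 0.316). Mcm4, a replication helicase gene 466 bp from Prkdc, had 157 ± 4.53 CPM in C57BL/6J against 132 ± 75.0 CPM (adjusted p = 0.891), with most of that spread between the 2 NOD samples. Dntt overlaps no annotated gene. Its neighbours Blnk and Opalin were near 0, at 1.59 ± 0.933 and 0.0626 ± 0.0261 CPM in C57BL/6J.

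Factors that sense the break and assist joining were read from a list of 26 genes, all tested. Of these, 1 passed in edgeR and was lower in NOD, 2 had an unadjusted p under 0.05, and the median log2 fold change was -0.05. Among all 17291 tested genes, 3.68% passed in edgeR and 2268 had an unadjusted p under 0.05, so these counts do not set the list apart. The called gene was Rif1, which acts with 53BP1 to protect broken ends from resection. Rif1 stood at 231, 236, 282 and 311 CPM in the C57BL/6J libraries and at 98.4, 87.6, 162 and 138 CPM in the NOD libraries, with no overlap. It fell from 261 ± 44.0 to 123 ± 40.8 CPM (log2 fold change -1.09 ± 0.24, edgeR adjusted p = 0.0479). Without C57BL/6J sample 1 or 2 its log2 fold change was -1.26 or -0.91, and without NOD sample 1 or 2 it was -0.78 or -1.48. Those fits leave 1 sample in a strain, so only their effect sizes are given. Among edgeR fits with both samples of each strain, the call was lost with crossed B numbers as a block (adjusted p = 0.155). It was also lost with only the first library of each sample (0.0934). It held in edgeR with the B number as a block (0.0164) and with only the second library of each sample (0.0438). The adjusted p was 0.00706 in DESeq2 and 0.00679 in limma on the 8 libraries. The 3 most abundant of the list were Hmgb2 (409 ± 47.9 and 268 ± 133 CPM), Hmgb1 (407 ± 41.3 and 299 ± 26.7 CPM, log2 fold change -0.45 ± 0.17, adjusted p = 0.276) and H2afx (347 ± 48.4 and 295 ± 199 CPM). The HMGB proteins bend DNA and assist RAG cleavage, and H2afx encodes the histone variant phosphorylated at breaks.

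The lists for other routes of repair are short. With 3.68% of all tested genes passing in edgeR and 937 of 17291 in DESeq2, few or no calls in them do not set them apart. For alternative end joining, 0 of 6 genes passed in edgeR, in DESeq2 and in limma on the 8 libraries, 0 had an unadjusted p under 0.05, and the median log2 fold change was -0.16. Its most abundant genes were Lig1 (173 ± 37.2 and 117 ± 91.4 CPM), which encodes the replicative ligase, Parp1 (153 ± 15.3 and 120 ± 36.9 CPM) and Rbbp8 (70.0 ± 0.997 and 69.5 ± 19.7 CPM). For homologous recombination, 0 of 18 genes passed in edgeR and in limma on the 8 libraries, 1 passed in DESeq2 and 1 had an unadjusted p under 0.05, with a median of -0.07. The gene called by DESeq2 was Rpa3, the smallest subunit of RPA (21.0 ± 5.67 and 40.7 ± 3.04 CPM, log2 fold change 0.96 ± 0.23; adjusted p = 0.0181 in DESeq2 and 0.0586 in edgeR). Rpa1, which encodes the largest subunit of this single-strand binding complex, was the list's most abundant gene (168 ± 17.2 and 164 ± 40.1 CPM), followed by Brca1 (56.0 ± 5.11 and 42.7 ± 27.6 CPM) and Blm (51.5 ± 0.115 and 44.1 ± 25.2 CPM).

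Transcription factors known to act on Rag or Dntt formed a list of 19, of which 18 were tested. None passed in edgeR, in DESeq2 or in limma on the 8 libraries, 0 had an unadjusted p under 0.05, and the median log2 fold change was -0.14. Of all 17291 tested genes, 3.68% passed in edgeR and 2268 had an unadjusted p under 0.05. Satb1, a chromatin organizer that acts at the Rag locus in thymocytes, was the most abundant at 5847 ± 473 and 4880 ± 622 CPM (-0.26 ± 0.20, edgeR adjusted p = 0.718). Tcf7 stood at 4024 ± 126 and 3197 ± 199 CPM (-0.33 ± 0.18, adjusted p = 0.544) and Bcl11b, the T lineage commitment factor, at 1737 ± 85.7 and 1922 ± 130 CPM (0.15 ± 0.18, adjusted p = 0.845).

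Proliferation genes differed widely between the NOD samples, and the repair lists moved with them. The 14 proliferation genes summed to 3421 to 4673 CPM in the C57BL/6J libraries. They summed to 1231 and 872 CPM in NOD sample 1 and to 4675 and 4910 CPM in NOD sample 2, and 0 of them passed in edgeR, in DESeq2 or in limma on the 8 libraries. The homologous recombination list summed to 408 and 401 CPM in NOD sample 1 and to 710 and 712 CPM in NOD sample 2, on either side of the C57BL/6J range of 566 to 609 CPM. The break response list summed to 1459 and 1428 CPM in NOD sample 1 and 2070 and 2276 CPM in NOD sample 2, against 2262 to 2470 CPM in C57BL/6J. The sum over the 10 members, most of which is Rag1 and Dntt, was 9499 and 8551 CPM in NOD sample 1 and 7744 and 7760 CPM in NOD sample 2, against 11384 to 14329 CPM in C57BL/6J. The 7 end-joining genes summed to 853 and 831 CPM in NOD sample 1 and 848 and 864 CPM in NOD sample 2, overlapping the 844 to 935 CPM of the C57BL/6J libraries. Without NOD sample 1, the log2 fold changes were -0.78 for Rag1, -0.33 for Rag2 and -0.51 for Dntt. The part of proliferation in the list differences was not tested.

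**Figure D5:**
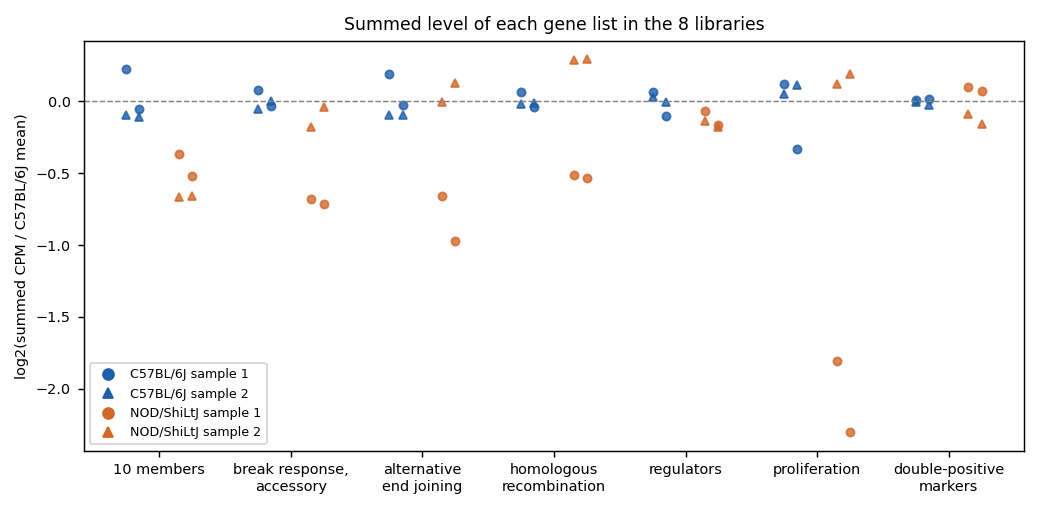
Summed CPM of each gene list in the 8 libraries, as log2 over the mean of the 4 C57BL/6J libraries; colours are strains and shapes are samples. NOD sample 1 (circles) lies far below NOD sample 2 for the proliferation and repair lists, whereas both NOD samples lie below C57BL/6J for the sum of the 10 members, most of which is Rag1 and Dntt.

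Single markers of the double-positive stage differed between the strains in opposite directions. The 10 double-positive markers summed to 9730 to 9983 CPM in C57BL/6J and 8843 to 10581 CPM in NOD. Of them, 0 passed in edgeR, 1 in DESeq2 and 2 in limma on the 8 libraries, while 2 had an unadjusted p under 0.05 in edgeR. Over all tested genes, 637 of 17291 passed in edgeR, 937 of 17291 in DESeq2 and 749 of 15227 in limma. An unadjusted p under 0.05 in edgeR was reached by 2268 of the 17291 genes. Cd4 had 1250 ± 159 and 1292 ± 66.6 CPM and Cd8a 1562 ± 120 and 1659 ± 29.6 CPM. The genes called by another tool were Cd8b1 (1728 ± 201 and 1075 ± 101 CPM, -0.68 ± 0.18; adjusted p = 0.0445 in DESeq2 and 0.0144 in limma), with every NOD library below every C57BL/6J library, and Ptcra, the pre-T cell receptor alpha chain (28.0 ± 10.5 and 48.2 ± 0.802 CPM, 0.79 ± 0.26; adjusted p = 0.0439 in limma). The mature single-positive list, of a stage that has shut off the recombinase, summed to 179 to 185 and 135 to 147 CPM, and the double-negative list to 295 to 408 and 222 to 372 CPM. B cell genes summed to 338 to 411 and 248 to 376 CPM, nearly all of it Ighm (345 ± 15.0 and 298 ± 56.5 CPM). Myeloid and dendritic genes summed to 7.92 to 9.78 CPM in C57BL/6J and 13.1 to 23.6 CPM in NOD, natural killer genes to 0.306 to 1.07 and 1.13 to 2.20 CPM, stromal genes to 4.57 to 7.64 and 7.40 to 8.52 CPM and erythroid genes to 1.32 to 6.48 and 1.53 to 13.5 CPM. None of the 9 marker lists held a gene at 0 in all libraries. Their called genes in edgeR were Cd44 of the double-negative list (11.9 ± 0.919 and 24.1 ± 3.20 CPM, adjusted p = 0.0474), an adhesion receptor, and Csf1r of the myeloid list (0.642 ± 0.278 and 3.55 ± 0.364 CPM, adjusted p = 0.0233), a growth factor receptor of macrophages, both higher in NOD. DESeq2 also called Il7r (adjusted p = 0.0289) and Lyz2 (0.0193), higher in NOD. The myeloid, dendritic and natural killer sums were higher in every NOD library, and their part in the results was not tested.

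Genes whose profile over the 8 libraries was most like that of Rag1 or Dntt were picked from 3880 coding genes with a mean of 50 CPM or more, by the mean absolute difference of centred log2 CPM. For Rag1 they were Diaph1 (difference 0.0669), Cd8b1 (0.0936), Ppp1r3b (0.0977), Lcp2 (0.103) and Pde4d (0.105). Cd8b1, which encodes the beta chain of the CD8 coreceptor used in the stage definition, had means of 1728 CPM (C57BL/6J) and 1075 CPM (NOD), with a log2 fold change of -0.68 (edgeR adjusted p = 0.0911), and Diaph1 at 515 and 334 CPM (-0.62, adjusted p = 0.0989). For Dntt they were Lsp1 (0.0448), Rara (0.0495), Chmp4b (0.0510), Rasa3 (0.0579) and Rps28 (0.0593). Lsp1 stood at 429 and 319 CPM (-0.43, edgeR adjusted p = 0.333). None of these 10 genes passed the test.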

How the data were processed

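Total RNA of 8 libraries was measured. The authors deposited raw counts, whole numbers of reads per Ensembl gene and library, without normalization. STAR 2.5.0a aligned the reads of both strains to GRCm38 and HTSeq 0.6.1 did the counting, per the submitters' processing notes; the annotation release, strand setting and duplicate removal are not given in the sources used here. GRCm38 is a C57BL/6J assembly, and its effect on NOD counts was not tested. Of 53465 listed genes, 53360 had a GENCODE M21 identifier, which gave symbols, positions and exon lengths. The depth in genes was 8.53 to 15.7 M reads (units of 1000000) for libraries of C57BL/6J and 23.53 to 30.37 M for those of NOD. Counter rows for reads not counted in a gene were left out of library sizes. Reads assigned to no gene feature made up 39.98% to 59.08% of listed reads.

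Libraries of the same strain and B number were added up. The labels spell out neither the B nor the T numbers (read here as repeated libraries), nor whether samples are separate animals, so p-values reflect the spread of these samples alone, part or all of which may be technical. Libraries of the same sample differed beyond sampling noise (chi-square per degree of freedom 2.96 to 61.2). Genes kept by filterByExpr were fitted in edgeR 4.0.16 (TMM, robust quasi-likelihood F-test, no term but strain, residual degrees of freedom 2; R 4.3.3), two-sided, with Benjamini-Hochberg adjusted p over all tested genes and a threshold of 0.05. DESeq2 1.42.0 and limma 3.58.1 (voom with duplicateCorrelation) were alternatives, beside other scaling, no filter, each sample or T number left out and a replicate block. The scripts were tested on simulated data.

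The members and the 14 gene lists were chosen with earlier results of these data known. Named genes are all members, every gene that edgeR called and the 3 highest of each pathway list, overlapping and nearest coding genes, and the 5 genes most like Rag1 and Dntt (pseudocount 0.5); genes that DESeq2 or limma called in a list, and called markers, were named after their values were seen. Promoter sequences are from RefSeq (GRCm38.p6).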

Additional observations from a re-analysis of the deposited data

Results flagged for a closer look

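Values over the 4 libraries of a strain were searched for a highest or lowest library set apart from the other 3 by more than Dixon's 95% critical value. Of 56 groups examined, 4 showed this, where chance gives about 1 in 20, and the libraries of the same sample are not independent. Rag1 in C57BL/6J was 10612 CPM in the first library of sample 1, with the others at 8381 to 8527 CPM. Xrcc6 in NOD was 419 CPM in the second library of sample 2, with the others at 362 to 370 CPM. The Xrcc5 to Xrcc6 ratio in NOD was 0.0998 in the second library of sample 1, with the others at 0.135 to 0.138. The summed natural killer list in C57BL/6J was 1.07 CPM in the first library of sample 2, with the others at 0.306 to 0.343 CPM. The Rag1 and Xrcc6 libraries also had the 2 smallest shares of reads outside genes (40.0% and 46.6%) of the 8 libraries.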

How the results depend on the processing

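The directions of Rag1, Rag2, Dntt, Xrcc6, Dclre1c and Nhej1 held in all 13 alternatives. The directions of the other members turned in a few. When 1 sample was left out, the log2 fold change ran from -0.26 to 0.09 for Xrcc5 (0.08 without NOD sample 1), from -0.10 to 0.41 for Prkdc, from -0.12 to 0.30 for Lig4 and from -0.04 to 0.24 for Xrcc4. With the share of reads outside genes as a covariate they were 0.03 for Xrcc5, -0.04 for Prkdc and -0.0 for Xrcc4, and with only the libraries of T number 2 they were -0.06 for Prkdc and -0.01 for Xrcc4. The cause was not tested. The 637 genes called became 1188 without the filter (35135 genes tested, with their median log2 fold change at 0.12), 1196 with the covariate, 342 with only the libraries of T number 2 and 256 to 1389 when 1 sample was left out (256 without C57BL/6J sample 1, 1389 without NOD sample 2, 359 without C57BL/6J sample 2). The 0 members called became 2 without the filter, 1 in limma on the 8 libraries and 2 with the covariate, and stayed at 0 when 1 sample was left out.

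Of the break response list, 1 gene was called, against 2 without the filter, 2 with the covariate, 0 with crossed B numbers, 0 with only the libraries of T number 1 and 0 to 3 when 1 sample was left out. For alternative end joining this was 0 to 3. For homologous recombination it was 0 to 8, with 2 without NOD sample 1 and 8 without NOD sample 2, and 1 in DESeq2, without the filter, with the covariate, with crossed B numbers and with only the libraries of T number 2. For regulators it was 1 with the covariate. With the B number as a replicate block, 513 genes and 0 members were called; samples with the same number did not deviate together (correlation -0.17), so the number is not taken as a pairing. With the numbers crossed, chosen after seeing the data, 768 genes and 0 members were called. The covariate was also chosen after seeing the data. Nhej1 had the fewest reads of the members, at 39 to 142 per library, and the widest interval. Intervals and tests other than those of limma rest on at most 2 samples per strain. The limma fits use the 8 libraries, with those of the same sample treated as correlated. Their p-values thus rest partly on repeated libraries.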
